A study of Mus musculus with 8 samples.

Results

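The S100 proteins and the annexins were followed in organoids, 3-dimensional epithelial cultures, grown from the hindstomach of mice, which is its glandular region, at embryonic day 18.5. Of 56691 genes in the deposited table, 29 have a symbol of these families: 12 annexin genes, 16 S100 genes and S100pbp, whose human product binds an S100 protein. The YAP5SA group had 4 libraries of genotype Shh-Cre;YAP5SA and the Ctrl group had 4 of genotype Shh-Cre, so the Cre recombinase driven from Shh was carried by both. YAP5SA is a form of YAP, the coactivator restrained by the Hippo pathway, that escapes this restraint because its phosphorylation sites are mutated. All cultures had 5 days of growth medium and then 7 days of differentiation medium. The labels name neither embryos, litters nor culture days, so the p-values reflect the spread among these 8 samples, which may be technical.

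Annexins are proteins that dock on acidic phospholipids of membranes when calcium rises, through a core built of repeated domains. They take part in membrane repair, secretion, endocytosis and the binding of plasminogen at the cell surface. S100 proteins are small calcium sensors with a pair of EF-hand motifs that mostly work as dimers, and several of them bind the free end of a given annexin. In stomach epithelium annexin A10 is known as a marker of the gastric mucous lineage.

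Total counts per library were 17387372 to 21039926 in YAP5SA, against 18225648 to 25841256 in Ctrl. The epithelial markers Epcam, Cdh1 and Krt18, named to check the labelled tissue, were at 591, 1247 and 2300 CPM in YAP5SA and 296, 2148 and 2127 CPM in Ctrl, where CPM is the count scaled to the library total with TMM factors. Summed over 12 mesenchyme markers the level was 1.55 to 1.97 CPM in YAP5SA and 0.391 to 0.75 CPM in Ctrl. The groups also differed in sex-linked transcripts, with 0 to 8 counts of Xist in each YAP5SA library and 8436 to 12237 in each Ctrl library. The Y-linked Ddx3y had 2291 to 2686 counts in YAP5SA and 0 in every Ctrl library. Genotype and these sex-linked differences cannot be told apart.

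The upstream sequences of Anxa10, Anxa1 and Anxa2 are shown because these 3 genes account for most of the annexin transcripts of one group or the other. Each run is the 250 bases before the annotated start in RefSeq on build GRCm38.p6, read in the direction of the gene. Capitals mark matches to the AP-1 motif TGANTCA or to the TEAD motif GGAATG, searched on both strands, where CATTCC is the TEAD motif read from the other strand. The Anxa10 run is chr8:62123194-62123443 on the minus strand, the Anxa1 run is chr19:20390672-20390921 on the minus strand and the Anxa2 run is chr9:69453433-69453682 on the plus strand.
Anxa10: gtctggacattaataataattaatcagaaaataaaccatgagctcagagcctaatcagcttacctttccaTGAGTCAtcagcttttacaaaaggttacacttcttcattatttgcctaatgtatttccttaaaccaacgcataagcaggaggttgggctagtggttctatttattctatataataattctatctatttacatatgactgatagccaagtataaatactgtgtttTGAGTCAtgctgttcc
Anxa1: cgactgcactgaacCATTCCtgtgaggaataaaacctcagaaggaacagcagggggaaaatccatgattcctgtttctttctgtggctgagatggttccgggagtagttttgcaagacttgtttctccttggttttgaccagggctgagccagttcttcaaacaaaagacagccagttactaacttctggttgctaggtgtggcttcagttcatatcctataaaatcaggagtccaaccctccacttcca
Anxa2: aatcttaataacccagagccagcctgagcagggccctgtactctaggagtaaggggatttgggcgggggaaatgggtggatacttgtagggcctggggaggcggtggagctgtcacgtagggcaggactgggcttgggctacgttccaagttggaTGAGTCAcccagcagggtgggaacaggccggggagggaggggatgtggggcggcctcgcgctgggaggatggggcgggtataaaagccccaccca
Anxa10 had AP-1 matches that begin 180 and 16 bases before its start, and Anxa2 had one that begins 95 bases before it. Anxa1 had a TEAD match that begins 236 bases before its start. Of 23 members with a promoter in the table, 3 held the TEAD motif (13.04%), against 14.4% of 27025 genes. The AP-1 motif was in 4 of the 23 (17.4%), against 7.82% of all genes. The matches are letters in a window and were not tested as binding sites.

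Most members differed between the groups, and they did so in both directions. Of the 29 members 24 had enough counts to be tested, and 10 of these were higher and 10 lower in YAP5SA at an edgeR adjusted p under 0.05. Of all genes tested, 64.5% were called, 33.1% higher and 31.3% lower. The share called was 83.3% of the members, 91.7% of the annexins and 72.7% of the S100 genes. Its distance from the background was not tested, and the members were called higher as often as lower. The median log2 fold change was 0.14 over the 24 members and 0.02 over all 13812 genes tested. Annexins had 6 higher and 5 lower of 12 tested, with a median of 0.30, and S100 genes had 3 higher and 5 lower of 11 tested, with a median of -0.14. A change of more than 2-fold was called for 6 members higher and 4 lower, against 25.5% of all genes tested in either direction. The libraries of one group lay wholly above those of the other for 21 of the 24 members, against 58.7% of all genes tested. In this bulk RNA fewer cells of a type and less RNA per cell cannot be told apart.

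**Figure D1:**
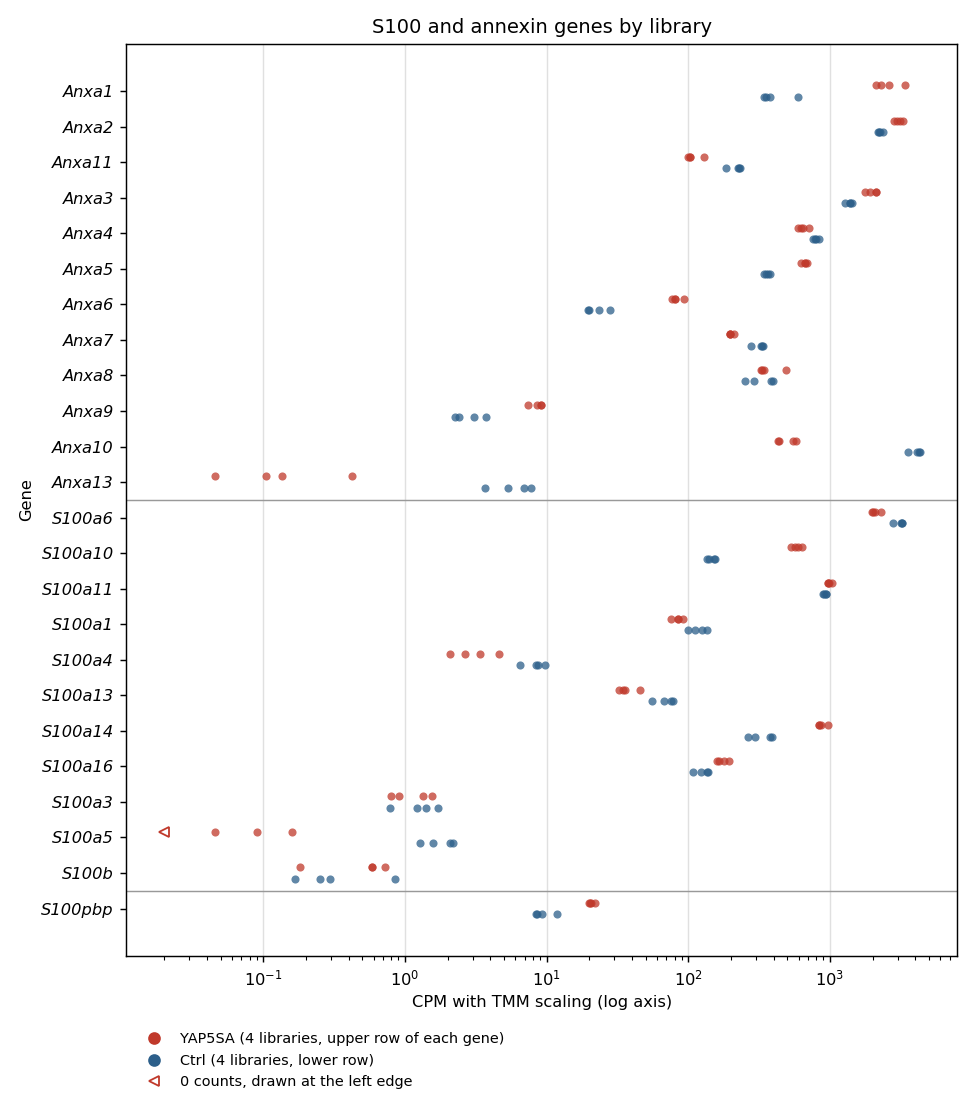
CPM with TMM scaling on a log axis for the 24 tested members, annexins at the top, S100 genes below them and S100pbp last. Each point is a library, with the 4 YAP5SA libraries in the upper row of a gene and the 4 Ctrl libraries in the lower row, and the groups overlap for Anxa8, S100a3 and S100b.

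With TMM scaling the summed levels of both families overlapped between the groups, while their makeup differed. Over the 12 annexins the sum per length of transcript was 3268 ± 322 CPM per kilobase of exon in YAP5SA and 3562 ± 138 in Ctrl (SD, n = 4 each), and over the 16 S100 genes it was 4738 ± 188 in YAP5SA and 4734 ± 196 in Ctrl. The ranges of the libraries overlapped for both sums. With libraries scaled by size alone, an alternative chosen after seeing the data, the annexin sum was 3224 to 3864 CPM per kilobase in YAP5SA and 3267 to 3412 in Ctrl, which still overlapped. The S100 sum was then 4912 to 5236 in YAP5SA and 4323 to 4563 in Ctrl, with no overlap. As a share of counts, with neither TMM scaling nor division by length, annexins were 1.01% to 1.19% of all counts in YAP5SA libraries and 0.936% to 0.969% in Ctrl libraries. S100 genes were 0.505% to 0.535% in YAP5SA libraries and 0.428% to 0.464% in Ctrl libraries. As shares of counts neither family overlapped between the groups, so the overlap of the S100 sums depends on the scaling, and that of the annexin sums was lost only when the division by length was dropped as well.

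**Figure D2:**
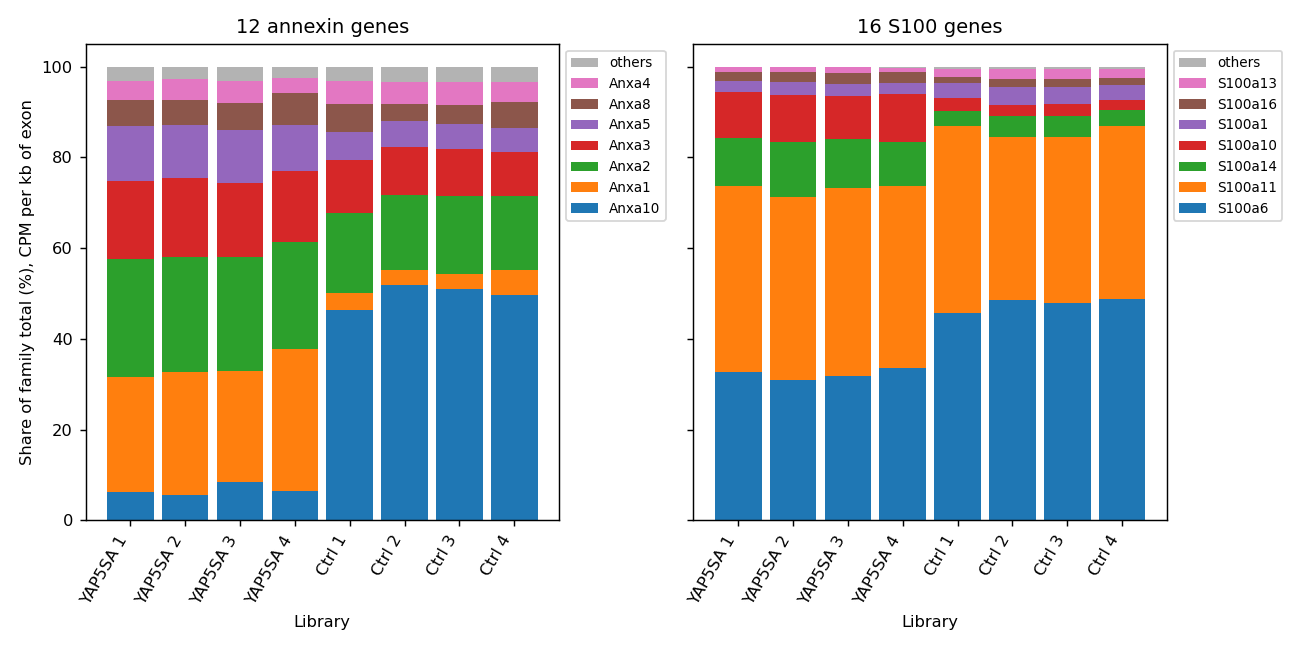
Share of each gene in the summed level of its family, in percent, from CPM per kilobase of exon, for each library with the 4 YAP5SA libraries on the left of each panel. Anxa10 takes 5.69% to 8.40% of the annexin total in YAP5SA and 46.3% to 51.8% in Ctrl, and the S100a6 band is also narrower in YAP5SA.

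Within the annexins the share of Anxa10 was smaller in YAP5SA and those of Anxa1, Anxa2, Anxa3 and Anxa5 were larger, as the stacked shares show. Anxa10 made up 6.70% ± 1.18 of the annexin level per length in YAP5SA and 49.7% ± 2.43 in Ctrl. Anxa1 made up 27.1% ± 3.01 in YAP5SA and 4.004% ± 1.12 in Ctrl, and Anxa2 had 25.003% ± 1.01 in YAP5SA. The order of Anxa1 and Anxa2 differed among the YAP5SA libraries. Anxa2 was ahead in replicate 1 (25.97% against 25.46%) and replicate 3 (25.2% against 24.4%). Anxa1 was ahead in replicate 2 (27.1% against 25.2%) and replicate 4 (31.3% against 23.6%). In Ctrl Anxa2 had 17.0% ± 0.554. Anxa3 had 16.7% ± 0.782 in YAP5SA and 10.5% ± 0.8289 in Ctrl, and Anxa5 had 11.4% ± 0.918 in YAP5SA and 5.70% ± 0.349 in Ctrl. The other 7 annexins held at most 6.004% each as group means in either group. Within the S100 genes, S100a11 and S100a6 led in both groups, and their order in YAP5SA rests on the exon lengths used. S100a11 had 40.8% ± 0.559 in YAP5SA and 38.0% ± 2.31 in Ctrl, while S100a6 had 32.2% ± 1.12 in YAP5SA and 47.7% ± 1.43 in Ctrl. S100a14 and S100a10 had 10.8% ± 0.969 and 10.1% ± 0.471 in YAP5SA, against 4.04% ± 0.649 and 2.53% ± 0.233 in Ctrl.

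Among all 24280 genes with an exon length, the members include some of the most abundant messages. By mean CPM per kilobase S100a11 ranked 8 in YAP5SA and 20 in Ctrl, and S100a6 ranked 16 in both groups. The order between genes rests on the merged exon lengths, 511 bases for S100a11 and 1367 for S100a6. Without division by length S100a6 was above S100a11, at 2088 against 987 CPM in YAP5SA and 3092 against 916 CPM in Ctrl. Anxa10 ranked 202 in YAP5SA and 22 in Ctrl, and Anxa1 ranked 37 in YAP5SA and 330 in Ctrl. S100a10 ranked 78 in YAP5SA and 400 in Ctrl.

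Annexins with S100 partners were taken first. Annexin A1, a phospholipid-binding protein that dampens inflammation and is induced by glucocorticoids, was encoded by the member with the steepest rise. Anxa1 was at 2276, 2610, 2121 and 3371 CPM in the YAP5SA libraries and at 375, 351, 342 and 593 CPM in the Ctrl libraries. The lowest YAP5SA library was above the highest Ctrl library by a wide margin, and Ctrl replicate 4 stood apart from the other 3 Ctrl libraries. The log2 fold change was 2.64 (SE 0.18, edgeR adjusted p = 2.32e-08). Annexin A2 forms a tetramer with S100A10 that binds plasminogen and actin. Anxa2 was at 2975, 3119, 2808 and 3258 CPM in YAP5SA and at 2197, 2257, 2357 and 2205 CPM in Ctrl, and rose by 0.43 on the log2 scale (SE 0.07, edgeR adjusted p = 0.000122). Its groups did not overlap, but the rise was smaller than that of its partner S100a10, given next. Anxa11, whose product tethers RNA granules to lysosomes, was at 109 ± 13.9 CPM in YAP5SA and 217 ± 21.4 CPM in Ctrl, a log2 fold change of -1.0 (SE 0.10).

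The S100 partners of annexins moved in different ways. S100A10, also called p11, cannot bind calcium and is held in its active shape. S100a10 was at 570, 592, 532 and 640 CPM in the YAP5SA libraries and at 151, 139, 154 and 135 CPM in the Ctrl libraries. Every YAP5SA library was more than 3-fold above every Ctrl library, and the log2 fold change was 2.01 (SE 0.08, edgeR adjusted p = 8.02e-11). S100a6, which encodes calcyclin, was at 2070, 1977, 2006 and 2298 CPM in YAP5SA and at 2773, 3213, 3149 and 3233 CPM in Ctrl. It fell by 0.57 on the log2 scale (SE 0.08, edgeR adjusted p = 2.46e-05), with no overlap between the groups. S100a11, which encodes a partner of annexin A1, was at 971, 965, 980 and 1033 CPM in YAP5SA and at 934, 887, 904 and 940 CPM in Ctrl. Its groups did not overlap either, yet the log2 fold change of 0.11 (SE 0.06) did not pass the test (edgeR adjusted p = 0.159). It passed with upper quartile factors (0.16, edgeR adjusted p = 0.0392) and with scaling by library size alone (0.28, edgeR adjusted p = 0.00178).

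Ratios inside a library do not depend on scaling, and 4 pairs whose proteins are known to bind each other were compared. The count of Anxa2 was 5.22, 5.27, 5.28 and 5.09 times that of S100a10 in the YAP5SA libraries, against 14.6, 16.2, 15.3 and 16.3 times in the Ctrl libraries. The mean log2 ratio was 2.38 ± 0.024 in YAP5SA and 3.96 ± 0.077 in Ctrl (SD, n = 4 each), so S100a10 gained 2.99-fold on Anxa2 (exact two-sided permutation p = 0.0286, adjusted p = 0.0381 over the 4 pairs). The ratio of Anxa1 to S100a11 was 2.34, 2.70, 2.16 and 3.26 in YAP5SA libraries and 0.402, 0.395, 0.378 and 0.631 in Ctrl libraries, a difference of 2.55 on the log2 scale. The ratio of Anxa11 to S100a6 was 0.0500, 0.0503, 0.0646 and 0.0449 in YAP5SA libraries and 0.0668, 0.0717, 0.0713 and 0.0707 in Ctrl libraries, a difference of -0.43 on the log2 scale. YAP5SA replicate 3 came close to Ctrl replicate 1 in this last pair. Both had the same exact p and adjusted p as the first pair, the smallest that 4 libraries against 4 allow being 0.0286. S100a8 and S100a9 had at most 3 counts in any library, and the ratio between them gave an exact p = 0.914 (difference 0.40 on the log2 scale) that rests on too few counts to read. Count ratios are not ratios of molecules, since the transcripts differ in length.

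**Figure D3:**
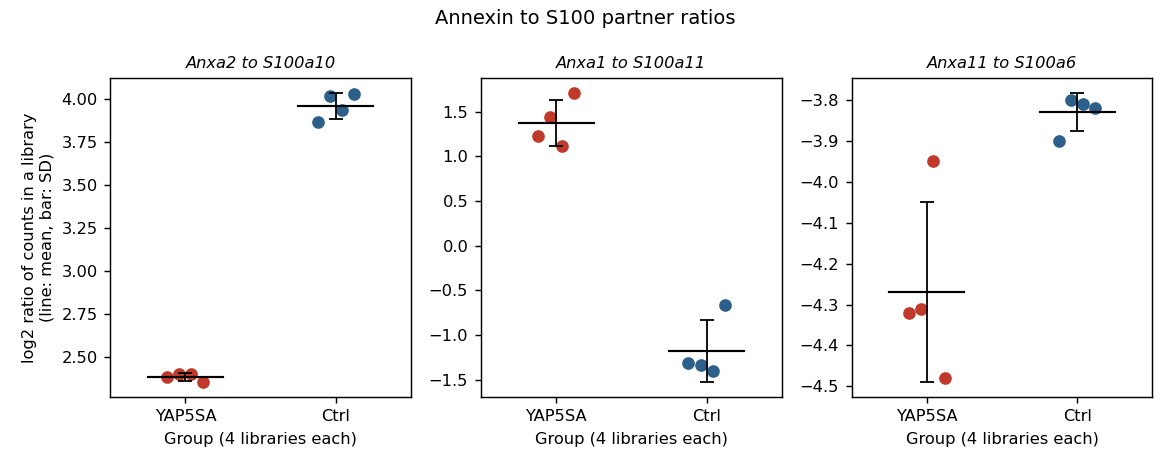
Log2 ratio of the counts of an annexin gene to those of its S100 partner in each library, with YAP5SA left of Ctrl, the line at the mean and the bar showing the SD over 4 libraries. The Anxa2 to S100a10 ratio lies at 2.35 to 2.40 in YAP5SA and at 3.87 to 4.03 in Ctrl, with a narrow spread in both groups, and the axes differ between panels and do not start at 0.

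Of 6 further annexins, 3 were higher, 2 were lower and Anxa8 did not pass the test, while 64.5% of all genes tested were called. Anxa6, the annexin with a duplicated core, was at 92.8, 80.6, 76.5 and 80.7 CPM in YAP5SA and at 28.1, 19.6, 23.5 and 19.9 CPM in Ctrl, and rose by 1.86 on the log2 scale (SE 0.11, edgeR adjusted p = 6.21e-09). Anxa5, whose product binds phosphatidylserine and inhibits clotting, was at 666, 689, 621 and 665 CPM in YAP5SA and at 365, 376, 356 and 344 CPM in Ctrl, and rose by 0.87 (SE 0.07). Anxa3 was at 1982 ± 168 CPM in YAP5SA and 1366 ± 62.5 CPM in Ctrl, and rose by 0.54 (SE 0.08). For these 3 genes no YAP5SA library fell into the Ctrl range. Anxa7, which encodes the granule-aggregating protein synexin, was at 195 to 211 CPM in the YAP5SA libraries and 279 to 335 CPM in the Ctrl libraries, and fell by 0.67 (SE 0.08). Anxa4, an annexin of the epithelial apical surface, was at 643 ± 49.5 CPM in YAP5SA and 793 ± 34.1 CPM in Ctrl. Its fold change was -0.30 on the log2 scale (SE 0.07, edgeR adjusted p = 0.00276), a call lost when libraries were scaled by size alone (-0.12, edgeR adjusted p = 0.150). Anxa8 was at 325, 340, 334 and 486 CPM in YAP5SA and at 396, 253, 291 and 381 CPM in Ctrl. These ranges overlapped, and the fold change on the log2 scale, 0.17 (SE 0.15, edgeR adjusted p = 0.348), was 0.00 without YAP5SA replicate 4.

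Of the 3 tissue-restricted annexins, Anxa10 and Anxa13 were lower and had the widest differences of the family, and Anxa9 was higher. Anxa10 was at 438, 432, 575 and 550 CPM in YAP5SA and at 3561, 4297, 4274 and 4112 CPM in Ctrl. It fell by 3.02 on the log2 scale (SE 0.11, edgeR adjusted p = 3.84e-11), and the highest YAP5SA library was far below the lowest Ctrl library. Of 14 glandular and simple epithelium markers, all tested, 5 were higher and 8 lower, with the claudin gene Cldn3 at 4.03 (SE 0.17) on the log2 scale. Among the lower ones were genes of gastric mucous cells, with Gkn2 at 1362 ± 297 CPM in YAP5SA and 18186 ± 3885 CPM in Ctrl and Tff1 at 1192 ± 210 CPM in YAP5SA and 10720 ± 1909 CPM in Ctrl. The part of a change in cell makeup in the Anxa10 result was not tested. Anxa13, an annexin of intestinal and renal epithelium, had 3, 2, 8 and 1 counts in the YAP5SA libraries and 95, 132, 167 and 66 in the Ctrl libraries. The ratio of the summed counts, 14 in YAP5SA and 460 in Ctrl, makes it 31.2-fold lower per total count (95% counting interval 18.4 to 57.4). Its log2 fold change was -5.07 (SE 0.44, edgeR adjusted p = 2.10e-07) and -5.88 without YAP5SA replicate 3, which holds most of the YAP5SA counts. Anxa9, an annexin whose calcium-binding residues are altered, was low in both groups, with 200, 175, 161 and 163 counts in YAP5SA and 66, 38, 74 and 43 in Ctrl. It rose by 1.57 on the log2 scale (SE 0.19, edgeR adjusted p = 5.24e-06). In GENCODE M21 3.42% of its exon length is shared with Mindy1 on the opposite strand, a gene with 1283 counts in YAP5SA and 3516 in Ctrl. Another overlap, 4.53% of its exon length, is with 6330562C20Rik on the same strand, which had 15 counts in YAP5SA and 8 in Ctrl.

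**Figure D4:**
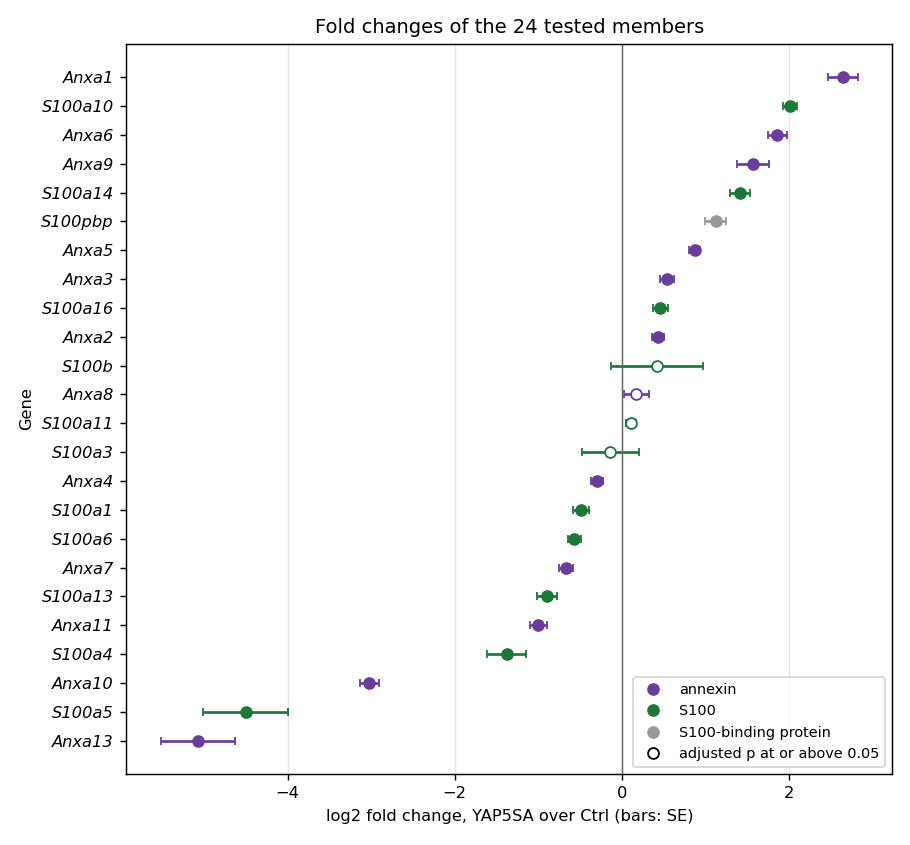
Log2 fold change, YAP5SA over Ctrl, of each tested member with its standard error as a bar, ordered by value. Annexins and S100 genes are spread over both sides of 0, from -5.07 for Anxa13 to 2.64 for Anxa1, and the open points of S100b, Anxa8, S100a11 and S100a3 did not pass the test.

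All 5 widely expressed S100 genes outside the annexin partners were called, 2 higher and 3 lower, beside 64.5% of all genes tested. S100a14, an S100 gene of epithelial sheets, was at 843, 971, 866 and 839 CPM in YAP5SA and at 264, 391, 375 and 294 CPM in Ctrl. The groups were well apart, and the gene rose by 1.41 on the log2 scale (SE 0.12, edgeR adjusted p = 1.28e-07). S100a16 was at 174 ± 15.4 CPM in YAP5SA and 127 ± 13.7 CPM in Ctrl, and rose by 0.46 (SE 0.09). S100a13, whose product aids the release of fibroblast growth factor 1 and interleukin 1 alpha, was at 37.1 ± 5.74 CPM in YAP5SA and 69.3 ± 10.0 CPM in Ctrl, and fell by 0.90 (SE 0.12). S100a1, best known from heart muscle, was at 84.0 ± 6.49 CPM in YAP5SA and 118 ± 15.9 CPM in Ctrl, and fell by 0.49 (SE 0.10). S100a4, whose product binds non-muscle myosin and is linked to cell motility, was at 3.40, 2.65, 2.08 and 4.60 CPM in YAP5SA and at 6.54, 8.70, 8.37 and 9.71 CPM in Ctrl. It fell by 1.38 on the log2 scale (SE 0.23, edgeR adjusted p = 0.000114), at a level far below its neighbour S100a6. In GENCODE M21 51.7% of the S100a4 exon length is shared with Gm42674 on the same strand, so some of its reads may not have been assigned. Gm42674 had 6 counts in YAP5SA and 0 in Ctrl. S100pbp was at 20.7 ± 0.806 CPM in YAP5SA and 9.54 ± 1.57 CPM in Ctrl, and rose by 1.12 (SE 0.12).

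The 8 tissue-restricted S100 genes were low in both groups, with at most 50 counts in any library, and 3 of them were tested. S100a5, known from olfactory neurons, had 2, 0, 3 and 1 counts in the YAP5SA libraries and 28, 37, 50 and 23 in the Ctrl libraries. The summed counts of 6 in YAP5SA and 138 in Ctrl make it 21.8-fold lower per total count (95% counting interval 9.77 to 60.4), and its fold change was -4.50 on the log2 scale (SE 0.51, edgeR adjusted p = 3.42e-06). S100a3, known from the hair cuticle, had 15 to 34 counts in YAP5SA and 14 to 29 in Ctrl, with ranges that overlapped and an edgeR adjusted p = 0.726 (log2 fold change -0.14, SE 0.34). S100b, the glial S100 gene, had 13, 14, 11 and 4 counts in YAP5SA and 15, 5, 6 and 3 in Ctrl, and its fold change on the log2 scale, 0.42 (SE 0.55, edgeR adjusted p = 0.516), was 1.07 without Ctrl replicate 1. Of 9 glia and Schwann cell markers 2 were tested, with Mbp higher at 0.99 (SE 0.09) and Erbb3 lower at -1.34 (SE 0.10), both also known outside glia. Summed over the list the level was 234 to 251 CPM in YAP5SA and 265 to 358 CPM in Ctrl, nearly all of it from Mbp and Erbb3. Sox10, Foxd3 and Gfra3 had 0 counts in all 8 libraries. The part of these markers in the S100b values was not tested.

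S100a8 and S100a9 encode the subunits of calprotectin, the antimicrobial complex of neutrophils. S100a8 had 1 count in YAP5SA replicate 1 and 0 in the other 7 libraries, and S100a9 had 6 counts in each group. The limit that a count of 0 allows, taken as 3 counts in a library, was 0.143 to 0.173 CPM in YAP5SA and 0.116 to 0.165 CPM in Ctrl. These limits are scaled to the library total alone, without the TMM factors used for the other levels. Of the 19 neutrophil and myeloid markers, Csf3r, Retnlg, Camp, Mpo, Elane, Adgre1 and Tyrobp had 0 counts throughout. In all 6 were tested, with 5 higher and Itgb2 lower. The sum over the 19 was 1133 to 1394 CPM in YAP5SA and 134 to 179 CPM in Ctrl. In both groups most of it came from the single gene Ltf, so it is not a measure of the list as a whole. The higher genes include the Fc receptor gene Fcgr3, at 28.2 ± 5.62 CPM in YAP5SA and 9.79 ± 1.17 CPM in Ctrl, the secreted iron-binding protein gene Ltf, at 1151 ± 100 CPM in YAP5SA and 131 ± 20.6 CPM in Ctrl, and Csf1r, at 31.9 ± 2.73 CPM in YAP5SA and 0.319 ± 0.0844 CPM in Ctrl. S100a2, a gene of stratified epithelium, had 0, 0, 4 and 9 counts in YAP5SA and 11, 7, 31 and 7 in Ctrl, which overlap. S100g encodes calbindin D9k, the calcium carrier of intestinal cells, and lies on the X chromosome. It had 1, 3, 2 and 5 counts in YAP5SA and 3, 21, 13 and 5 in Ctrl, which overlap. S100z had 6, 9, 1 and 5 counts in YAP5SA and 1, 0, 4 and 2 in Ctrl, which overlap too. With the filter on low counts in place, these 5 genes were not tested. Without that filter 7 S100 genes were called lower, against 5 with it, and the added calls lie among these 5 genes. The number of S100 genes called higher stayed at 3, and S100z was not among them. By summed counts S100a2 was 4.08-fold lower per total count (counting interval 2.21 to 8.14) and S100g 3.62-fold lower (1.83 to 7.80). S100z was 3.16-fold higher (1.30 to 8.81). These intervals cover counting error only, not the spread between libraries.

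Neighbouring members on chromosome 3 shared a direction in some places and differed in others. In RefSeq 15 of the 29 members lie on chromosome 3, 11 of them S100 genes in an unbroken order from S100a1 to S100a9 apart from 1 coding gene between S100a6 and S100a8. Along this stretch S100a1 and S100a13 were lower, the next pair S100a14 and S100a16 was higher, and S100a4, S100a5 and S100a6 were lower. Between S100a16 and S100a4 lie S100a3, which was not called, and S100a2, which was not tested. S100a11 and S100a10 form an adjacent pair that 56 coding genes separate from S100a9. Their log2 fold changes were 0.11 and 2.01. Of the 12 members on chromosome 3 that were tested, 5 were higher and 5 were lower. Of all genes tested, 33.1% were higher and 31.3% lower. Whether neighbours share a direction more often than other genes was not tested.

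**Figure D5:**
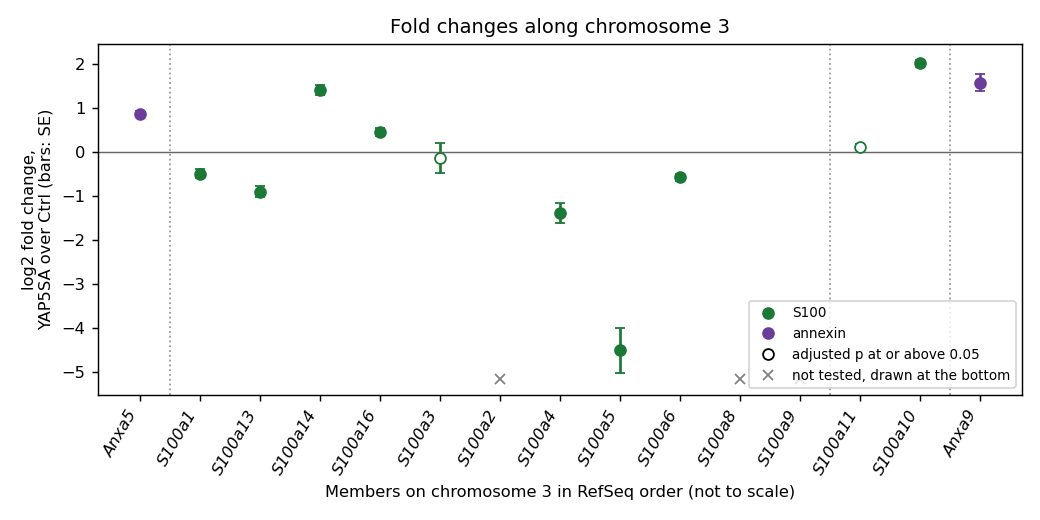
Log2 fold change, YAP5SA over Ctrl, with its standard error for the members on chromosome 3, placed in RefSeq order and not to scale, with dotted lines where other coding genes intervene in number. Called genes of the S100 cluster alternate in sign in runs of neighbours, and S100a5 is lowest at -4.50.

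Genes that work with these proteins were read from lists, each against the background of 33.1% higher and 31.3% lower. Of 11 tested genes of plasminogen activation and of partners of the annexin A2 tetramer, 7 were higher and 3 lower, with a median log2 fold change of 0.52. Plau, the urokinase gene, was at 64.3 ± 7.03 CPM in YAP5SA and 4.34 ± 1.17 CPM in Ctrl, and rose by 3.89 (SE 0.16). Eno1, a glycolytic enzyme that also binds plasminogen and whose reads may be shared with pseudogenes, rose by 1.10 (SE 0.08). Plgrkt, a plasminogen receptor gene, fell by 1.2 (SE 0.10). The urokinase receptor gene Plaur, named after its value was seen, fell by 1.19 (SE 0.18).

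Receptors for S100 proteins and annexins were mostly low or split. Of 13 listed genes 7 were tested, with 3 higher and 3 lower. Bsg, which encodes the S100A9 receptor basigin, was at 4646 ± 343 CPM in YAP5SA and 1781 ± 179 CPM in Ctrl, and rose by 1.38 (SE 0.09). Tlr4 fell by 0.81 (SE 0.09) and its partner Ly96 fell by 1.35 (SE 0.14). The annexin A1 receptor gene Fpr2 had 1 count in each group, and Ager, the gene of the receptor RAGE, had 37 counts in YAP5SA and 15 in Ctrl.

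Other calcium-binding families were compared by the same counts. Of 20 tested EF-hand genes outside the S100 family, 9 were higher and 8 lower, with a median of 0.04. Calu, a calcium-binding protein of the secretory pathway, rose by 1.60 (SE 0.08), Cib1 fell by 1.32 (SE 0.09) and Sri fell by 1.10 (SE 0.09). Genes of calcium-dependent membrane repair had 5 higher and 10 lower of 20, or 8 higher with scaling by library size alone. The calpain gene Capn2 rose by 2.0 (SE 0.10), Capn1 fell by 1.33 (SE 0.08) and the ferlin gene Fer1l4 fell by 2.93 (SE 0.15). Copines, which bind membranes through C2 domains, had 2 higher and 1 lower of 5, with Cpne8 at 1.79 (SE 0.10), Cpne3 at 0.57 (SE 0.07) and Cpne2 at -1.08 (SE 0.18). Phospholipase A2 and eicosanoid genes had 6 higher and 3 lower of 10. Ptgs1, a cyclooxygenase gene, rose by 3.49 (SE 0.16), while of the phospholipase genes Pla2g10 fell by 4.80 (SE 0.19) and Pla2g4c fell by 4.46 (SE 0.20).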

How the data were processed

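Gene-level RNA-seq counts were used. The table deposited by the authors holds unnormalized read counts. The tools named in the submitters' processing notes are HTSeq 0.6.1, HISAT2 2.0.1 and cutadapt, with build mm9. Annotation and strand setting: not given in the sources used here, so overlapping genes are uncertain. Groups and replicate numbers came from the titles. No pair of replicates agreed within sampling noise (chi-square per degree of freedom 4.94 to 37.2).

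The test was that of edgeR 4.0.16 under R 4.3.3. Its filterByExpr (minimum count 10, minimum total 15) kept 13812 genes, TMM factors were 1.04 to 1.08 in YAP5SA and 0.92 to 0.974 in Ctrl, and the quasi-likelihood F test, two-sided with no covariate, was adjusted by Benjamini-Hochberg over all genes tested (threshold 0.05). Standard errors are the log2 fold change over the square root of F. Levels between genes are CPM divided by the merged exon length in GENCODE M21 (GRCm38), found for all 29 members, which need not be the authors' gene models. Intervals and floors of 3 counts cover counting error only. Partner ratios used a pseudocount of 0.5 and an exact permutation test over libraries. Promoters and gene order are from RefSeq GRCm38.p6, matched by symbol.

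The test was first tried on simulated data with the same spread for all genes. It recovered 66.7% of changes of 1.5-fold, 98.7% of 2-fold and 100% of 4-fold, and 5.79% of its calls were false. Members and lists were chosen with earlier results of these data known. Named genes are all members and, per list, the 3 called genes with the smallest p and 1 in the other direction. Named outside that rule, with values known, are Epcam, Cdh1 and Krt18 as checks of the tissue, Plaur, Fpr2, Ager and list genes at 0. Alternatives were DESeq2 1.42.0, voom from limma 3.58.1, other scalings and filters, leaving out genes above 1% of a library, the replicate block and leaving out each library.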

Additional observations from a re-analysis of the deposited data

Results flagged for a closer look

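A single library stood apart from the other 3 of its group in 6 of 48 groups examined, where chance flags about 1 in 20 groups, by the gap to the nearest library relative to the whole range (Dixon's test). Anxa1 was at 593 CPM in Ctrl replicate 4, above 342 to 375 CPM in the other Ctrl libraries. Anxa8 was at 486 CPM in YAP5SA replicate 4, above 325 to 340 CPM in the other YAP5SA libraries. YAP5SA replicate 3 was highest for Anxa11, at 130 CPM against 99.3 to 103 CPM in the others, and for Anxa7, at 211 CPM against 195 to 197 CPM. Ctrl replicate 1 was lowest for the same genes, with Anxa11 at 185 CPM below 225 to 230 CPM and Anxa7 at 279 CPM below 326 to 335 CPM. The causes were not tested. None of these libraries changes the call of its gene, as leaving it out kept the direction and call of Anxa1, Anxa7 and Anxa11 and left Anxa8 not called.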

How the results depend on the processing

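Of 407 values of member log2 fold changes under 17 other settings, 402 kept their direction and their side of the threshold. The counts of S100 and annexin genes called higher or lower stayed within 1.5 times under every setting. Without the filter on low counts, 7 S100 genes were called lower, against 5 with it. Scaling by library size alone moves the median of all genes to 0.19 from 0.02 and calls 5742 genes higher and 3201 lower, against 4577 and 4330; it ended the call of Anxa4 and added that of S100a11, which upper quartile factors added too, as given above. S100a3, not called, was at 0.03 with library size alone and ranged from -0.33 to 0.00, the last without Ctrl replicate 2, when 1 library was left out. Deviations of same-numbered replicates correlated at 0.0463 to 0.281, the highest value of all pairs being that of replicate 4. Those of unlike numbers correlated at -0.192 to 0.131, and Ctrl replicate 2 correlated best with YAP5SA replicate 3. Whether a replicate number stands for a shared culture or batch is not given by the labels and was not tested. The replicate block called 4715 genes higher and 4459 lower, against 4577 and 4330 without it, and changed no member's call. For the ratios, differences with the replicate block were -1.58 for Anxa2 to S100a10, 2.55 for Anxa1 to S100a11 and -0.43 for Anxa11 to S100a6, each with exact p = 0.125, the smallest that 4 pairs allow. Leaving out 1 library gave -1.61 to -1.56, 2.44 to 2.72 and -0.54 to -0.36, each with exact p = 0.0571, the smallest that 3 libraries against 4 allow; S100a8 to S100a9 ranged from -0.03 to 0.96. Of 476 counts of list members called, 35 moved by over 1.5 times; the 1 lower myeloid marker, Itgb2, lost its call in 12 settings. Depth limits S100a2, S100a8, S100a9, S100g and S100z.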

Other observations

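Symbols with a further letter or number lie outside the rule that chose the members, and the S100a7 genes among them went opposite ways. S100a7a had 1634, 1484, 1228 and 1904 counts in the YAP5SA libraries and 163, 240, 207 and 69 in the Ctrl libraries, and rose by 3.09 on the log2 scale (SE 0.25, edgeR adjusted p = 9.91e-08). S100a7l2 had 13, 11, 19 and 26 counts in YAP5SA and 506, 495, 805 and 416 in Ctrl, a change of -5.08 on the log2 scale (SE 0.21, edgeR adjusted p = 1.05e-10). For both genes the groups did not overlap. Their values were known when these genes were chosen.

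The S100 cluster borders the epidermal differentiation complex, whose fused-type S100 and cornified envelope genes were also divided. Of 19 listed genes 8 were tested, with 3 higher and 2 lower, or up to 5 lower without Ctrl replicate 1. Sprr2a1, a small proline-rich envelope gene, was at 58.0 ± 35.4 CPM in YAP5SA and 700 ± 160 CPM in Ctrl (log2 fold change -3.59, SE 0.32), Sprr3 was at 6.59 (SE 0.24) and Ivl at -3.09 (SE 0.15). Of 10 tested squamous and basal markers, 1 was higher and 4 lower, with Krt4 at 3.04 (SE 0.17), Krt14 at -2.39 (SE 0.30) and Sbsn at -1.28 (SE 0.20). Of 4 tested mesothelium-type markers 2 were higher and 2 lower; Upk3b rose by 2.11 (SE 0.25), Msln fell by 0.42 (SE 0.08), and Wt1 had 88 counts in YAP5SA and 0 in Ctrl. No mesenchyme or endothelium marker had enough counts to be tested.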
